A study of Mus musculus with 8 samples.

Results

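The 30 genes described here encode the intraflagellar transport machinery: the subunits of the IFT-A and IFT-B complexes, the kinesin-2 motors and 2 subunits of the dynein-2 motor. They were chosen by mouse symbol, and all 30 were found among the 37991 genes of the deposited files and passed the filter on low values. The libraries hold RNA of fibro/adipogenic progenitors (FAPs), mesenchymal cells of skeletal muscle with the capacity to form fibroblasts or fat cells. Mice of mixed background received a glycerol injury of the tibialis anterior muscle, and the progenitors were isolated from it 3 days later. The FAP-ctrl group (5 libraries) came from wild type muscle. In the FAP-no cilia group (3 libraries) a floxed allele of Ift88, itself 1 of the 30 genes, had been conditionally deleted so that the cells lose their cilia. All libraries share the injury and the time point. No source used here names the Cre line or the age of the mice, and nothing says whether each library is a separate animal, so the p-values measure the spread between these libraries, which may be technical.

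Intraflagellar transport is the bidirectional traffic of protein trains along the axoneme, the microtubule core of the cilium. Trains built from IFT-B and IFT-A are pulled to the tip by kinesin-2 and back to the base by dynein-2, and they carry building blocks and signalling proteins that the cilium cannot make for itself. A primary cilium is not formed when Ift88, a subunit of the IFT-B core, is lost, and Hedgehog signalling in vertebrates passes through this organelle.

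The libraries held 25.2 to 43.9 M gene reads in the control group and 15.3 to 29.5 M in the FAP-no cilia group. FAP markers were abundant in every library: 10 of them (Pdgfra, Ly6a, Dcn and others) summed to 721383 to 957896 normalized reads in FAP-ctrl and to 826446 to 954140 in FAP-no cilia. The labels give no sex, but Xist and 4 Y-linked genes showed that all 3 FAP-no cilia libraries and FAP-ctrl 1 and 2 were from male mice and FAP-ctrl 3, 4 and 5 from female mice. Xist stood at 16.6 to 118 in the former and at 19158 to 27801 in the latter, so sex is partly confounded with the groups, and values within the male libraries are given where they bear on a result. All values below are normalized read counts, that is, reads divided by a size factor of the library, unless a value is said to be per kilobase.

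Ift88, the tetratricopeptide-repeat subunit of the IFT-B core and the gene that was deleted, was reduced in all 3 FAP-no cilia libraries, none of which reached the lowest control. Ift88 (ENSMUSG00000040040, chromosome 14, 57424062 to 57517936, GRCm38) stood at 477, 457, 540, 566 and 594 in FAP-ctrl 1 to 5. It stood at 211, 195 and 322 in FAP-no cilia 1 to 3, which rested on 167, 109 and 368 reads. The groups were separated by the gap between 322 and 457, and FAP-no cilia 3 lay above the other two FAP-no cilia libraries.

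Ift88 averaged 527 ± 58.4 (SD, n = 5) over FAP-ctrl libraries and 243 ± 69.3 (SD, n = 3) over FAP-no cilia libraries, so that 46.1% of the FAP-ctrl level remained. The log2 difference, FAP-no cilia minus FAP-ctrl, was -1.14 ± 0.17 (SE) with a 95% interval of -1.52 to -0.77 in limma-trend. Its adjusted p over the 14768 genes tested was 0.0895 and did not pass the threshold of 0.05. An exact two-sided permutation test of Ift88 alone, with the smaller tail doubled, gave p = 0.0357. This is the smallest p that doubling the tail allows with 5 against 3 libraries. Any gene with groups that do not overlap reaches it, and 7.31% of all genes tested were separated in this way. DESeq2 called Ift88 (adjusted p = 8.11e-06), and edgeR's quasi-likelihood test did not (log2 difference -1.12, adjusted p = 0.111). When FAP-no cilia 3 was left out, limma-trend called Ift88 as well (log2 difference -1.37, adjusted p = 0.0214).

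Within FAP-ctrl, Ift88 was lower in the 2 male libraries (mean 467) than in the 3 female libraries (mean 567), and these did not overlap. The share of all genes separated by sex in this way was not computed, so this is a description only. The 3 FAP-no cilia libraries, all male, were below the 2 male FAP-ctrl libraries as well. The log2 difference within male libraries was -0.98 ± 0.22 (SE, limma-trend, adjusted p = 0.394 over all genes), and it was also -0.98 with sex as a covariate. The counts are per gene, so reads from exons inside and outside the floxed part cannot be told apart, and fewer cells with Ift88 and less Ift88 RNA per cell cannot be told apart either.

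**Figure D1:**
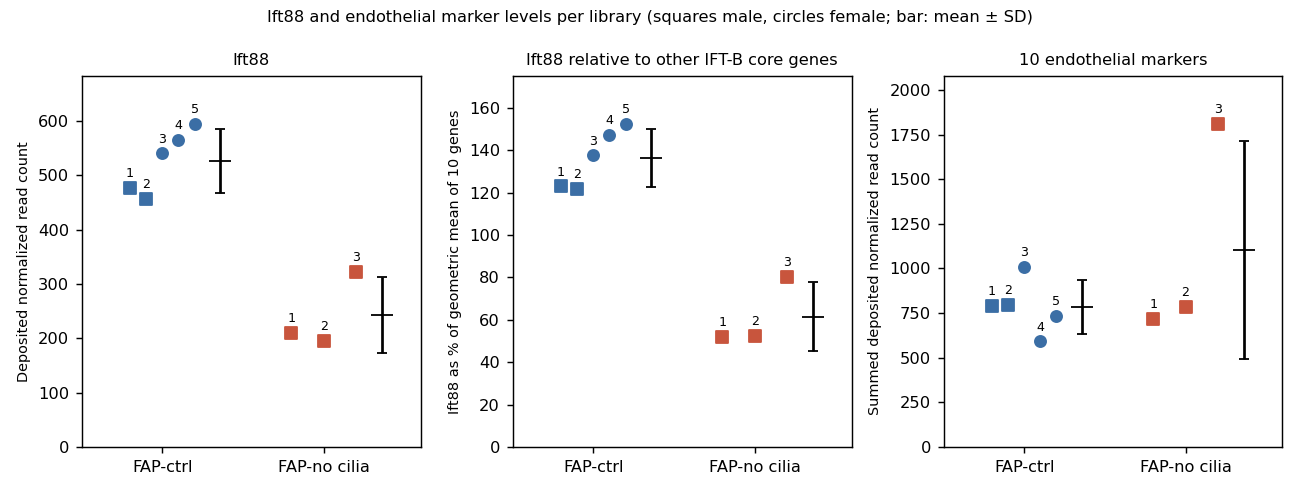
Each point is 1 library (numbered by replicate, squares male and circles female), and the bar beside each group is the mean ± SD of 5 FAP-ctrl or 3 FAP-no cilia libraries. The panels show Ift88, Ift88 as a percentage of the geometric mean of the 10 other IFT-B core genes, and the sum of 10 endothelial markers. Ift88 lies at 195 to 322 in FAP-no cilia and at 457 to 594 in FAP-ctrl, and FAP-no cilia 3 is the highest of its group in Ift88 and the highest library in endothelial markers.

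Ift88 was also separated between the groups when it was set against its partners in the same library. As a percentage of the geometric mean of the 10 other IFT-B core genes it stood at 123, 122, 138, 147 and 152 in FAP-ctrl 1 to 5. In FAP-no cilia 1 to 3 it stood at 51.8, 52.3 and 80.3. The geometric mean itself was 375 to 393 in FAP-ctrl and 374 to 407 in FAP-no cilia, and these ranges overlap. Per kilobase of annotated exon, Ift88 ranked 6 or 7 of 11 core genes in each FAP-ctrl library and 10, 10 and 8 in FAP-no cilia 1 to 3.

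Markers of other cells differed between the same FAP-no cilia libraries. FAP-no cilia 3, the highest of its group in Ift88, had the highest sum of 10 endothelial markers at 1808, against 716 and 785 in FAP-no cilia 1 and 2 and 591 to 1007 in FAP-ctrl. Of the 9 endothelial markers tested, 8 were higher in FAP-no cilia and none passed. The libraries were not alike in this: FAP-no cilia 1 lay below every FAP-ctrl library in Pecam1 (22.7), Tie1 (2.52) and Emcn (2.52). It lay above every FAP-ctrl library in Flt1 (71.9). Cldn5 was at 0 in 5 libraries, FAP-ctrl 2, 3 and 4 with FAP-no cilia 1 and 2. FAP-no cilia 2, the lowest in Ift88, had the highest sum of 12 macrophage markers at 4534, against 1395 and 1708 in FAP-no cilia 1 and 3 and 620 to 2689 in FAP-ctrl. All 12 macrophage markers were higher in FAP-no cilia, none passed, and none was at 0 in any library. The 8 markers of multiciliated cells, which hold motile cilia, summed to 163 to 255 in FAP-ctrl and 149 to 226 in FAP-no cilia, and Tekt1 was above 0 in FAP-ctrl 1 only. The 9 muscle fibre markers summed to 192 to 245 in FAP-ctrl and to 90.8, 113 and 180 in FAP-no cilia 1 to 3, with no overlap. All 4 muscle fibre markers tested were lower in FAP-no cilia and none passed. Myh4, Myh1 and Myh2, the myosin heavy chains of fast fibres, were at 0 in all 3 FAP-no cilia libraries. They were near 0 in FAP-ctrl too, with Myh4 at 1.07 to 3.47. Myh1 and Myh2 were at 0 in FAP-ctrl 1, 2 and 4 and reached at most 2.8 and 0.93 in FAP-ctrl. The 7 tenocyte markers summed to 21652 to 32737 in FAP-ctrl and to 40233, 27654 and 44076 in FAP-no cilia 1 to 3. Most of each sum came from Thbs4 and Prg4. The 6 tested were all higher in FAP-no cilia without passing. Scx, which did not pass the filter, stood at 3.47 to 6.43 in FAP-ctrl and at 1.26, 0 and 7.88 in FAP-no cilia 1 to 3. FAP-no cilia 3 was thus the highest of its group in the muscle fibre and tenocyte sums as well. The 8 satellite cell markers summed to 469 to 1060 in FAP-ctrl and to 580 to 672 in FAP-no cilia. Most of each sum came from Des and Itga7. Pax7, Myf5, Cdh15, Chrnd and Myog did not pass the filter. Over all 8 libraries Pax7 stood at 0 to 5.25 and Myf5 at 0 to 9.63. The part of these other cells in the Ift88 values was not tested.

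Members of this machinery are known as targets of the RFX transcription factors, which bind the X-box, a motif with a pair of inverted arms found in promoters of cilium genes. RefSeq promoter windows of GRCm38.p6, from 250 bases before to 50 bases after the start site, were matched for 25 of the 30 genes. The letters GTTGCC, a single arm, were searched on both strands and are contained in the pair of longer motifs. They occurred in 12 of the 25 genes (48%), each with 1 window, and in at least 1 window of 14.1% of all 27025 genes. The 12 genes were Ift88, Ift27, Ttc26, Ift57, Ift172, Traf3ip1, Ift140, Wdr35, Kif3a, Kif3c, Kif17 and Dync2h1. With the second arm written as GGNAAC, GTTGCCNNGGNAAC was found in Ttc26 alone of the 25 (0.355% of all genes). GTTGCCNGGNAAC was found in Ift57 alone (0.229% of all genes). In Kif17, GTTGCC is followed 1 base later by AGCAAC, which differs from GGNAAC in its first letter and was not counted. The letters searched were chosen after related forms had been searched in the same windows, and a match is a description, not a binding site. The matches to the longer motifs are printed with that in the deleted gene, 5′ to 3′ on the gene's strand, with the matched letters in capitals. The Ttc26 match lies 33 to 20 bases before the start site (printed window chr6:38381483-38381512, plus strand). The Ift57 match lies 60 to 48 bases before its start site (printed window chr16:49699226-49699255, plus strand). The Ift88 match reads GGCAAC, the arm on the opposite strand, and lies 21 to 26 bases after the start site (printed window chr14:57424080-57424109, plus strand).
Ttc26: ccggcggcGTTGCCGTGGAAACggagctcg
Ift57: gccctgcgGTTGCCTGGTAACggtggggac
Ift88: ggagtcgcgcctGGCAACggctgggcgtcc

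None of the other 29 genes passed the adjusted threshold in limma-trend, edgeR or DESeq2. In limma-trend 14 of the 29 were higher and 15 lower in FAP-no cilia, with a median log2 difference of -0.0049, against 0.0077 over all 14768 genes, of which 51.5% were higher. Over all genes limma-trend called 1 gene (0.00677%), edgeR 1 gene (0.00677%) and DESeq2 177 of 16767 genes (1.06%). An unadjusted limma-trend p under 0.05 was found for 3 of the 30 genes (10%), Ift88, Kif17 and Wdr19, against 10.8% of all genes tested. The groups did not overlap for 2 of the 30 (6.67%), Ift88 and Dync2li1, against 7.31% of all genes tested, and both shares are near those of all genes.

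The intervals show how large a difference the libraries leave possible. The 95% interval of the log2 difference lay above a 2-fold decrease, a log2 difference of -1, for 28 of the 29 genes, all but Kif17 (84% of all genes tested). It lay within a 1.5-fold change in either direction for 26 of the 29, all but Kif17, Ttc30a1 and Dync2h1 (57.5% of all genes tested). The coefficient of variation of the 29 genes between FAP-ctrl libraries ran from 3.43% (Ift52) to 27.6% (Kif17). Its median was 8.55% against 14.4% over all genes tested, a comparison that is not matched for level. Kif17 (27.6%) and Ttc30a1 (19.7%), the lowest of the 29 in level, were among the highest in this coefficient.

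**Figure D2:**
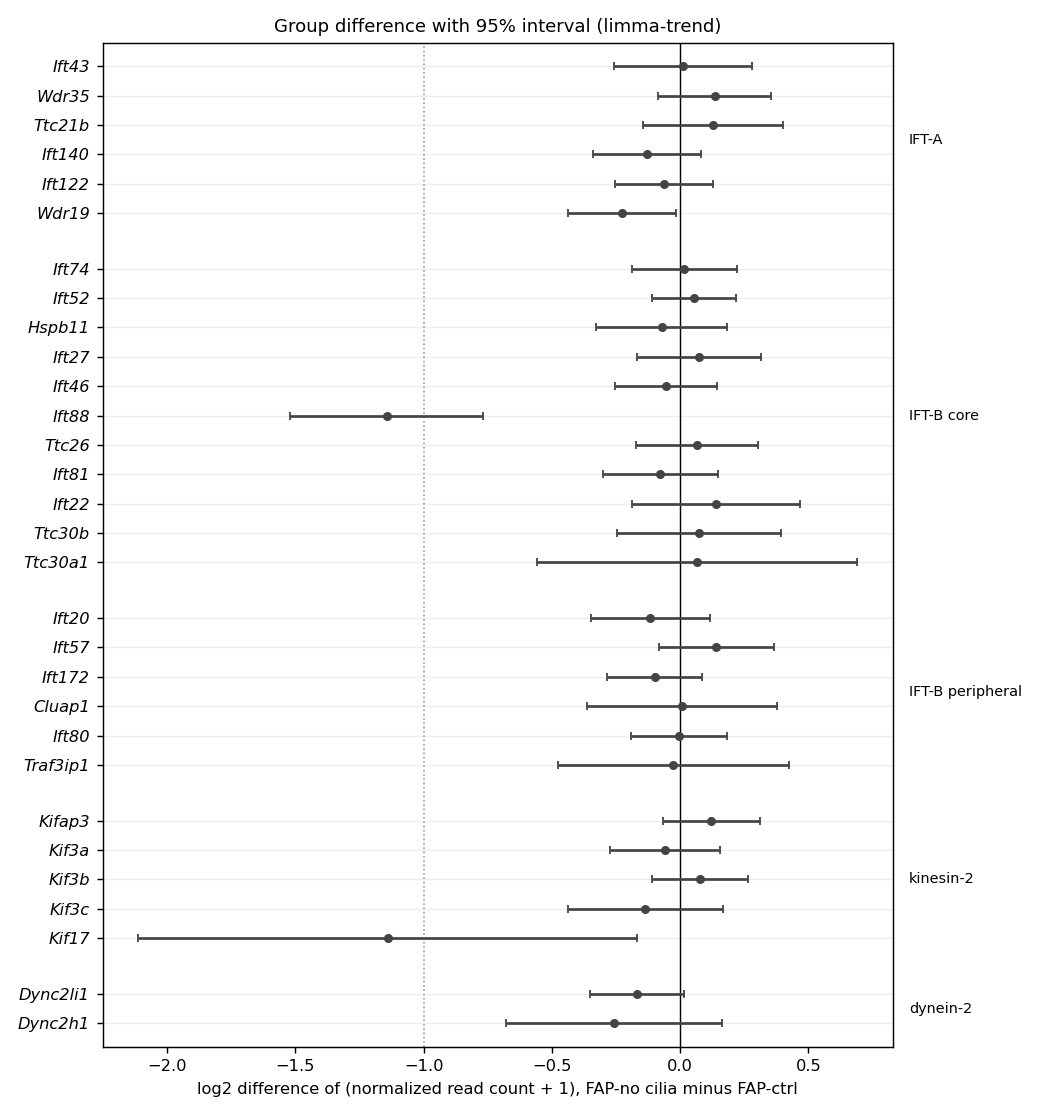
Log2 difference of FAP-no cilia minus FAP-ctrl with its 95% interval from limma-trend for the 30 genes, on the log2(value + 1) scale, ordered by complex. The dotted line marks a 2-fold decrease (log2 difference of -1). Ift88 at -1.14 and Kif17 at -1.14 lie apart from the other 28 genes, and the interval of Kif17 (-2.11 to -0.17) is much wider than that of Ift88 (-1.52 to -0.77).

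The 10 other genes of the IFT-B core, the part of the train that binds Ift88, had log2 differences between -0.078 (Ift81) and 0.14 (Ift22). The difference was above 0 in 7 of them and below 0 in 3 (median 0.060), and adjusted p-values in limma-trend ran from 0.765 to 0.967. Ift74, which forms the tubulin-binding module with Ift81, had the highest level of the core per kilobase. It stood at 1033, 886, 1119, 1000 and 936 in FAP-ctrl 1 to 5 and at 1046, 950 and 1015 in FAP-no cilia. All FAP-no cilia values of Ift74 fell inside the FAP-ctrl range. Ift52, a central scaffold of the core, stood at 913 ± 31.3 (SD, n = 5) and 948 ± 31.2 (SD, n = 3). Ift27, a small GTPase, and Hspb11, its partner, are needed for Hedgehog proteins to leave the cilium. Ift27 stood at 556 ± 52.5 and 584 ± 47.3 and Hspb11 at 541 ± 63.2 and 512 ± 34.2 (SD). Ift46, Ift22 (another GTPase) and Ttc26 had means of 939, 202 and 502 in FAP-ctrl and of 902, 221 and 524 in FAP-no cilia.

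Ttc30a1 and Ttc30b, paralogues that each encode the tetratricopeptide subunit often called Ift70, were the lowest genes of the core per kilobase. Ttc30a1 stood at 34.7, 38.6, 53.1, 38.2 and 52.0 in FAP-ctrl 1 to 5 and at 63.1, 30.5 and 46.4 in FAP-no cilia. FAP-no cilia held both the highest and the lowest library of Ttc30a1, and its 95% interval of -0.56 to 0.69 was the second widest of the 30 genes. Ttc30b stood at 124 ± 10.1 and 131 ± 10.4 (SD). The levels of both are uncertain, because reads of 50 bases cannot always tell them apart: 31.8% of the 50-base windows of the Ttc30a1 transcript and 34.8% of those of Ttc30b occur also in a transcript of another gene, namely Ttc30a2 or the other one. The coding sequences, each of 1992 bases, were 94.9% identical and differed at 102 positions. The first 60 coding bases show how closely they match, with the 10 differing bases in capitals (GENCODE transcripts, GRCm38).
Ttc30a1: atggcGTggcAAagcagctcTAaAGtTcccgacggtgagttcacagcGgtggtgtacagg
Ttc30b: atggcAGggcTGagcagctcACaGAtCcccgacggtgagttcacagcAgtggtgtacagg

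The 6 peripheral IFT-B genes, whose products dock on the core, had log2 differences between -0.12 (Ift20) and 0.14 (Ift57), with 2 higher and 4 lower. Ift20, the small subunit also found at the Golgi, was the highest of them per kilobase. It stood at 1001, 1114, 839, 962 and 907 in FAP-ctrl 1 to 5 and at 897, 952 and 814 in FAP-no cilia, and the groups overlapped. Traf3ip1, a microtubule-binding subunit, was the lowest per kilobase, at 177, 215, 208, 181 and 235 in FAP-ctrl 1 to 5, whereas the FAP-no cilia libraries stood at 146, 281 and 190. Of the latter, 1 lay below, 1 above and 1 inside the FAP-ctrl range. Ift80 and Ift172, large WD-repeat subunits, stood at 1037 ± 72.7 and 853 ± 43.9 (SD, n = 5) in FAP-ctrl and at 1032 ± 49.0 and 796 ± 54.9 (SD, n = 3) in FAP-no cilia. Ift57 stood at 505 ± 39.7 and 557 ± 42.0 and Cluap1 at 193 ± 22.8 and 196 ± 37.3 (SD). Of the 50-base windows of Cluap1, 26.6% are shared with Gm20695, an overlapping gene on the same strand that had a mean of 0.18 in FAP-ctrl, so the level of Cluap1 is uncertain too.

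The 6 genes of IFT-A, the complex that works with dynein-2 on the way back and brings membrane receptors into the cilium, were split 3 higher and 3 lower, with log2 differences between -0.23 and 0.13. Wdr19 (chromosome 5, 65199696 to 65260415, GRCm38), a WD-repeat subunit of the IFT-A core, was the lowest of the complex per kilobase and the gene with the largest difference. It stood at 589, 593, 633, 535 and 607 in FAP-ctrl 1 to 5 and at 516, 462 and 537 in FAP-no cilia. Only FAP-ctrl 4 kept the groups from separating, by 535 against 537. The log2 difference of Wdr19 was -0.23 ± 0.09 (SE), with an unadjusted p of 0.0364 and an adjusted p of 0.429 in limma-trend. Within male libraries it was -0.23 (limma-trend adjusted p = 0.720), since the male and female FAP-ctrl means of Wdr19 were both 591.

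Ift43, a small subunit, was the highest of IFT-A per kilobase, at 343, 399, 314, 323 and 341 in FAP-ctrl 1 to 5 and 339, 392 and 309 in FAP-no cilia, with overlapping groups. Ttc21b, which helps to bring G protein-coupled receptors into the cilium, stood at 1109 ± 168 and 1203 ± 95.5, and Wdr35 at 1022 ± 86.9 and 1122 ± 115 (SD). Ift122 stood at 608 ± 36.6 and 581 ± 13.2 and Ift140 at 664 ± 44.2 and 608 ± 50.6 (SD). The adjusted p-values of these 5 genes in limma-trend were 0.657 or above.

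Kinesin-2 occurs as a heterotrimer of Kif3a with Kif3b or Kif3c and the adaptor Kifap3, and as a homodimer of Kif17. Kifap3 was the highest of the 30 genes per kilobase. It stood at 3078, 2971, 3120, 3160 and 2876 in FAP-ctrl 1 to 5 and at 3686, 2946 and 3324 in FAP-no cilia, where 2 of 3 libraries lay above the FAP-ctrl range and FAP-no cilia 2 inside it. The log2 difference of Kifap3 was 0.12 ± 0.08 (SE, limma-trend adjusted p = 0.637). Kif3a stood at 1126 ± 96.3 and 1081 ± 95.3 and Kif3b at 1163 ± 76.0 and 1227 ± 82.6 (SD). Kif3c, known mainly from neurons, stood at 432 ± 61.4 and 391 ± 41.7 (SD). An antisense gene, 1110002L01Rik, covers 35.3% of the exon bases of Kif3c and had a mean of 67.5 in FAP-ctrl, and since the strand setting of the counting is not stated, reads of the pair may not be separable.

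Kif17 (chromosome 4, 138250435 to 138301967, GRCm38) was by far the lowest of the 30 genes. It stood at 20.1, 20.4, 17.7, 23.4 and 10.03 in FAP-ctrl 1 to 5, from 33, 19, 19, 27 and 11 reads. In FAP-no cilia it stood at 12.6, 3.58 and 8.76, from 10, 2 and 10 reads. The groups overlapped through FAP-ctrl 5, which lay below FAP-no cilia 1. Its mean was 18.3 ± 5.07 in the control group and 8.32 ± 4.53 in the other (SD). For Kif17 the log2 difference was -1.14 ± 0.44 (SE), with an unadjusted p of 0.0258 and an adjusted p of 0.400 in limma-trend. With FAP-no cilia 2 left out, which had 2 reads of Kif17 and the lowest depth of all libraries, it was -0.70 (adjusted p = 0.678). With a pseudocount of 10 in place of 1 it was -0.64 (adjusted p = 0.391), and within male libraries it was -1.33 (adjusted p = 0.682). Kif17 passed the filter on low values only through FAP-ctrl, where all 5 libraries reached a value of 10, against FAP-no cilia 1 alone. Its 95% interval over all 8 libraries, -2.11 to -0.17, and its unadjusted p are therefore a description. Kif17 did not pass the adjusted threshold in any setting.

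Dynein-2 returns the trains to the cell body. Dync2li1 (chromosome 17, 84626496 to 84655588, GRCm38), its light intermediate chain, stood at 620, 707, 634, 678 and 678 in FAP-ctrl 1 to 5 and at 588, 581 and 602 in FAP-no cilia. Dync2li1 was thus separated between the groups by the gap from 602 to 620, and 3.69% of all genes tested were separated in this direction. The mean of Dync2li1 was 663 ± 35.6 and 590 ± 10.6 (SD). Its log2 difference was -0.17 ± 0.08 (SE), with an unadjusted p of 0.0703 and an adjusted p of 0.503 in limma-trend, and it was -0.17 within male libraries (adjusted p = 0.773).

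Dync2h1, the heavy chain that carries the motor domain, had the highest coefficient of variation in FAP-ctrl after Kif17, 22.7%. It stood at 1176, 1039, 1198, 1486 and 778 in FAP-ctrl 1 to 5 and at 985, 1068 and 760 in FAP-no cilia, and the groups overlapped. FAP-ctrl 5 and FAP-no cilia 3 were low to the same extent. The log2 difference of Dync2h1 was -0.26 ± 0.19 (SE, limma-trend adjusted p = 0.653).

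**Figure D3:**
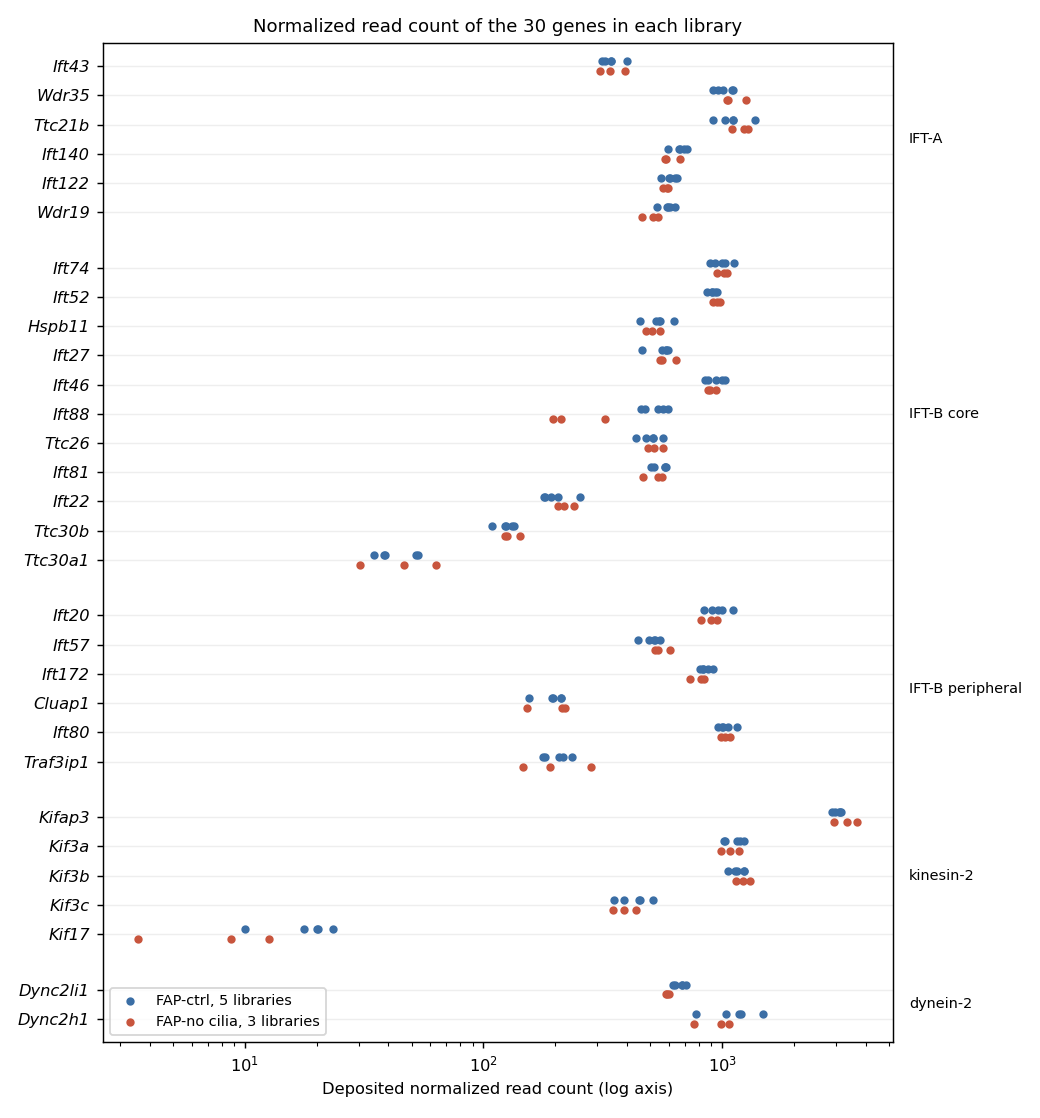
Normalized read count of each of the 30 genes in each of the 5 FAP-ctrl and 3 FAP-no cilia libraries, on a log axis, grouped by complex. The colours separate for Ift88 (195 to 322 against 457 to 594) and narrowly for Dync2li1 (581 to 602 against 620 to 707) and mix for the other 28 genes.

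Levels of different genes were compared per kilobase of all annotated exon bases of the gene, as means of FAP-ctrl. The 30 genes ran from 4.0 ± 1.11 (Kif17) to 758 ± 28.98 (Kifap3, SD, n = 5) normalized reads per kilobase. Of the 14266 tested genes with an annotated length, 5.24% lay below Kif17, 52.3% below Ift88 and 89.3% below Kifap3, and the median of those genes was 103. The medians of the complexes were 212 for the 2 dynein-2 genes, 206 for kinesin-2, 114 for the IFT-B core, 107 for the peripheral IFT-B genes and 99.6 for IFT-A.

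Within each complex the genes were far from equal. In the kinesin-2 heterotrimer the adaptor Kifap3 (758) lay above Kif3a (314 ± 26.9), Kif3a above Kif3b (206 ± 13.5) and Kif3b above Kif3c (58.3 ± 8.29, SD), and each step was larger than the spread. In the peripheral part Ift20 (633 ± 67.8) stood above Ift57 (177 ± 13.9), whereas Ift80 (83.5 ± 5.85) and Cluap1 (84.8 ± 10.01, SD) did not differ beyond their spread. In the core, Ift74 (375 ± 33.8) and Ift52 (326 ± 11.2) led and Ift88 (114 ± 12.6), Ttc26 (107 ± 10.2) and Ift81 (94.1 ± 6.18, SD) formed a middle group with overlapping spreads of neighbours. In FAP-no cilia Ift88 stood at 52.5 ± 15.0 per kilobase (SD, n = 3), near Ift22 (61.2) and Ttc30b (47.8). The 2 dynein-2 genes differed by more than their spread, with 355 ± 19.1 for Dync2li1 and 69.5 ± 15.7 for Dync2h1 (SD), whose transcript is the longest of the 30. The length chosen matters: with the longest transcript in place of all exon bases, Ift20 (827) stood above Kifap3 (758), and Ift122 moved from rank 23 to rank 17 of the 30.

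**Figure D4:**
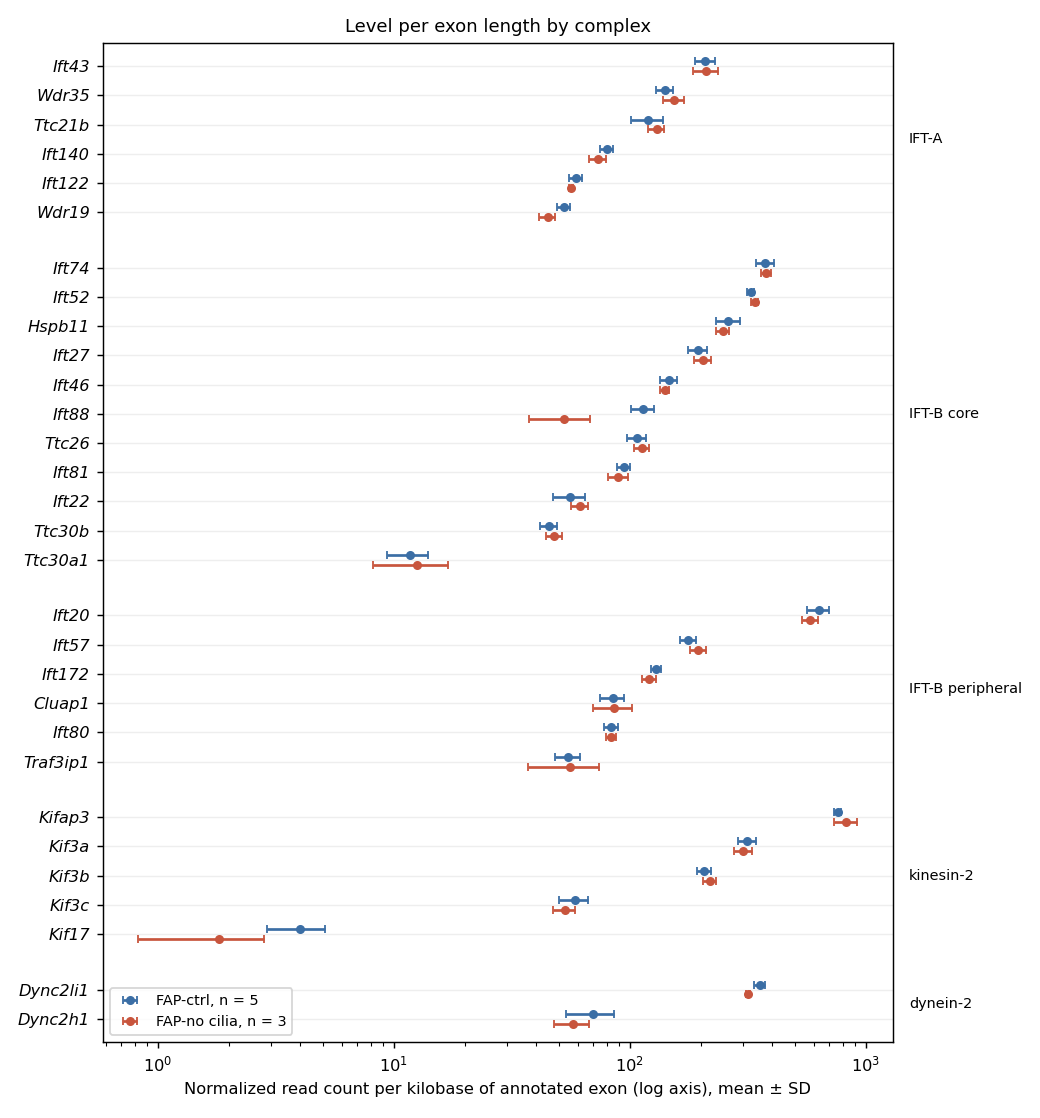
Mean ± SD of the normalized read count per kilobase of annotated exon in FAP-ctrl (n = 5) and FAP-no cilia (n = 3) for the 30 genes, on a log axis and in falling order within each complex. The genes span 4.0 (Kif17) to 758 (Kifap3) in FAP-ctrl, and the FAP-no cilia means keep near the FAP-ctrl means except for Ift88 (52.5 against 114) and Kif17 (1.82 against 4.0).

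Other genes of the same pathway were taken from 4 lists, and none of their members passed in limma-trend, edgeR or DESeq2. An unadjusted limma-trend p under 0.05 was found for 3 of the 47 genes tested (6.38%), Dynlrb1, Rabl2 and Fuz, a share below the 10.8% of all genes. The genes named from these lists are those with the smallest p in each list, and their values are a description. Among 7 tested subunits and light chains that dynein-2 shares or adds, the log2 difference was above 0 in 3 and below 0 in 4 (median -0.050). Dynlrb1, a light chain of both cytoplasmic dyneins, stood at 1933 ± 118 and 2186 ± 36.3 (SD), with no overlap of the groups (log2 difference 0.18 ± 0.07 SE, limma-trend adjusted p = 0.426). Dynll1, another light chain with many partners, stood at 6203 ± 288 and 6937 ± 426 (SD, limma-trend adjusted p = 0.487), and its groups were separated only by 6565 against 6567, whereas Dynll2 overlapped. Among all genes tested 7.31% were separated in either direction.

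Of 16 tested cargo adaptors, kinases and regulators of the trains, 3 had a log2 difference above 0 and 13 below 0 (median -0.073). Rabl2, a small GTPase that binds IFT-B, stood at 287 ± 40.1 and 367 ± 34.1 (SD), and its groups did not overlap (log2 difference 0.36 ± 0.14 SE, limma-trend adjusted p = 0.404). Fuz, a planar polarity effector needed for IFT-A recruitment, stood at 237 ± 34.8 and 175 ± 34.6 (SD), with a log2 difference of -0.45 ± 0.17 (SE, limma-trend adjusted p = 0.404) and overlapping groups. Mok, a kinase, stood at 30.1 ± 3.33 and 20.9 ± 9.23 (SD).

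The 17 genes of mother centriole appendages and ciliogenesis were split into 8 above and 9 below 0 (median -0.00067). Among these, Fbf1 stood at 556 ± 77.0 and 462 ± 53.5, Ofd1 at 580 ± 87.6 and 474 ± 111 and Cep164 at 708 ± 56.0 and 633 ± 42.4 (SD), each with overlapping groups. Of 7 tested genes of cilium disassembly, the difference was above 0 in 5 and below 0 in 2 (median 0.059). Nedd9, the scaffold of Aurora kinase A, stood at 1110 ± 133 and 964 ± 29.5, Plk1 at 691 ± 66.7 and 775 ± 65.0 and Kif24 at 223 ± 37.3 and 193 ± 47.3 (SD).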

How the data were processed

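Per the labels, stranded libraries of total RNA were read from a single end over 50 bases. The deposited signal is a read count per gene divided by a size factor: the authors aligned with STAR to GRCm38 and normalized with DESeq over all samples, per the series design text and the submitters' processing notes. No source used here names the counter or its strand setting. In every library 100% of values were whole multiples of 1 read within a tolerance of 0.01 reads, and 1 read was worth 0.610 to 1.79. Genes reaching a value of 10 in 3 or more libraries (14768) were tested on log2(value + 1) with limma-trend, genotype as the only term, Benjamini-Hochberg adjustment and an adjusted p under 0.05 as the threshold. Differences on this scale understate those of low genes. edgeR (TMM) and DESeq2 were run on the recovered reads as alternatives and called 1 and 177 genes. Symbols, positions and exon lengths came from GENCODE M21 (GRCm38), in which 32919 of 37991 identifiers were matched, and which may be later than the authors' annotation. Replicates were checked for copies: the chi-square of reads over genes per degree of freedom was 18.1 to 95.0 within groups. Per-library values are given for Ift88, for genes with an unadjusted p under 0.05, separated groups or a DESeq2 or edgeR call, and for the highest and lowest gene of each complex per kilobase. Of the other pathway lists up to 3 genes with the smallest p are named. The members and lists were chosen with earlier results of these data known. Scripts were tested on simulated data. Tools were DESeq2 1.42.0, edgeR 4.0.16 and limma 3.58.1 in R 4.3.3, and pandas 2.3.3, numpy 2.4.6 and matplotlib 3.10.9 in Python 3.11.15.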

Additional observations from a re-analysis of the deposited data

Results flagged for a closer look

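Ift27 in FAP-ctrl 3 stood at 464, apart from the other 4 FAP-ctrl libraries, of which the nearest stood at 561. The gap took 0.755 of the range of the 5 libraries, above the critical value of 0.71 of Dixon's test. This was 1 of 42 genes checked, and chance alone gives about 1 in 20.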

How the results depend on the processing

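Ift88 was lower in FAP-no cilia in each of the 19 other settings. Of these, sex as a covariate and male libraries alone give the same differences by design, since all FAP-no cilia libraries are male. Ift88 passed the threshold in DESeq2 (log2 difference -1.10, adjusted p = 8.11e-06) and when FAP-no cilia replicate 3 was left out. Leaving out 1 library at a time gave -1.37 to -1.01 (adjusted p = 0.0214 to 0.317), the other settings -1.15 to -0.98. No setting called any of the other 29 genes or any gene of the 4 lists. The number of genes called over all genes was 1, against 177 with DESeq2, 0 with limma-voom, 2 in male libraries alone, a setting chosen after seeing the data, and 1 to 3 with 1 library left out. The median log2 difference of the 29 genes was -0.024 with limma-voom and -0.040 to 0.0049 with 1 library left out. With 1 library left out the median of the other dynein-2 genes was -0.11 to 0.020, that of the appendage genes -0.094 to 0.012 and that of the disassembly genes -0.017 to 0.14. The dynein-2 list had a median of 0.012 with sex as a covariate and in male libraries alone. The cause of these shifts was not tested. With the longest transcript as length, the median level per kilobase in FAP-ctrl was 164 for IFT-A, 186 for the IFT-B core, 147 for peripheral IFT-B and 285 for dynein-2. Without division by length the medians were 636 for IFT-A, 541 for the IFT-B core, 679 for peripheral IFT-B, 899.5 for dynein-2 and 1126 for kinesin-2. Both groups share replicate numbers 1 to 3, but libraries of the same number deviated together only weakly (correlations -0.070, 0.14 and 0.036 over 14768 genes), so the numbers are taken as names. With the number as a replicate block the log2 difference of Ift88 was -1.05 (adjusted p = 0.0892), 1 gene was called over all genes and the median of the 29 genes was -0.0067. Kif17 rests on 2 to 33 reads per library, so its values carry a large counting error.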
